A study of Mus musculus with 6 samples.

Results

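The genes described here encode the Fanconi anaemia pathway and the homologous recombination machinery. They are 37 named genes, found by matching mouse Ensembl identifiers to symbols in a table of 55401 genes. All 37 were in the table and 36 had enough counts to be tested among 14661 genes. RNA came from ADC106, a mouse angiosarcoma cell line, angiosarcoma being a malignant tumour of the cells that line vessels. The NC group carried a wild-type label and received the control mimic at 12.5 nM. The other group was labelled as overexpressing miR-497 and received the miR-497 mimic, a synthetic RNA that acts as the mature microRNA, also at 12.5 nM. RNA was collected at 3 days, with 3 libraries per group. All 6 libraries came from this single line, and the labels do not say whether the replicates were separate cultures, so p-values measure only the spread between these libraries.

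The Fanconi pathway deals with interstrand crosslinks, lesions that tie the DNA strands together and stall replication forks. A core complex of Fanconi proteins, with the E2 enzyme UBE2T, ubiquitinates the FANCD2-FANCI pair, which then directs nucleases to the crosslink. The resulting break is resected to single-stranded DNA, loaded with a recombinase by BRCA1, PALB2 and BRCA2, and repaired from the sister chromatid. Many of these genes are known to be transcribed mainly in S and G2 phase, under E2F and DREAM control.

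Libraries held 25777676 to 36159499 counts. Mitochondrially encoded genes took 2.03% to 2.15% of the counts in NC libraries and 2.94% to 3.77% in miR-497 libraries. The groups did not overlap in this mitochondrial share, and its part in the results was not tested. The endothelial label was checked against 14 markers, all of which were tested; their summed level was 10686 to 11410 CPM (counts scaled to a common library size) with NC and 10319 to 10797 CPM with miR-497. Single endothelial markers moved both ways within that sum: 5 fell, 7 rose and 2 did not pass, from a log2 fold change of -0.94 for Egfl7 to 1.03 for Emcn. Blood markers summed to at most 2.35 CPM in any library, with 4 of 8 listed at 0 throughout, and 5 epithelial markers summed to at most 1.27 CPM. The 8 fibroblast and mural markers summed to 317 to 337 CPM with NC and to 504 to 600 CPM with miR-497, with 3 of the 6 tested higher, 1 lower and Lum listed at 0 in all libraries; their part in the results below was not tested.

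The mature guide strand and its relatives are printed because the seed decides which transcripts it can pair with. Capitals mark the seed, bases 2 to 8, in the RefSeq sequences of build GRCm38.p6; miR-16 and miR-195a share it with miR-497a.
mmu-miR-497a-5p: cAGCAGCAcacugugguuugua
mmu-miR-16-5p: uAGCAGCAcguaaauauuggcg
mmu-miR-195a-5p: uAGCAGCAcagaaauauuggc

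Words complementary to the seed were searched in the longest annotated 3' UTR of each gene (GENCODE M21, GRCm38). A site was TGCTGCT, called 8mer when followed by A and 7mer-m8 otherwise, or GCTGCTA, called 7mer-A1. Of the 36 tested members, 10 had a site, or 27.8%, against 28.1% of 12854 tested genes with a 3' UTR. Sites of the 3 lowered members with the largest falls among those with a site, and the only 8mer found among the members are shown with the site in capitals.
Xrcc2, chr5:25691021-25691040, minus strand: ccatggagggTGCTGCTtcc
Xrcc2, chr5:25689843-25689862, minus strand: agaggaattaTGCTGCTtta
Bard1, chr1:71027830-71027849, minus strand: cttcccacacTGCTGCTtgc
Rad51c, chr11:87378076-87378095, minus strand: gtgtcctcctTGCTGCTggg
Mre11a, chr9:14835434-14835454, plus strand: tataaaatgaTGCTGCTAgct
The other members with a site were Fancm, Brip1, Rad54b, Exo1, Rmi1 and Rmi2, whose 2 words overlap each other. A word is a description of the sequence and not evidence of pairing.

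With the miR-497 mimic, most of the pathway was expressed at a lower level. By edgeR's quasi-likelihood test, adjusted by Benjamini-Hochberg over all tested genes at a threshold of 0.05, 22 of the 36 tested members were lower, none was higher and 14 did not pass. Among all tested genes 26.0% were lower and 23.8% higher. The median log2 fold change of the members, miR-497 over NC, was -0.48, which is 71.9% of the NC level, against -0.02 over all tested genes. Falls of at least 2-fold were found for 4 members, Xrcc2, Rad54l, Rad51ap1 and Bard1, or 11.1%, against 5.19% of tested genes. Without adjustment, 24 members were lower and 1, Rad50, was higher; DESeq2 called Rad50 higher as well, and limma voom called no member higher. All 3 miR-497 values lay below all 3 NC values for 24 members and above them for 2, where 29.6% and 27.8% of tested genes did so. In bulk RNA, fewer cells in S or G2 phase and less RNA per cell cannot be told apart.

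**Figure D1:**
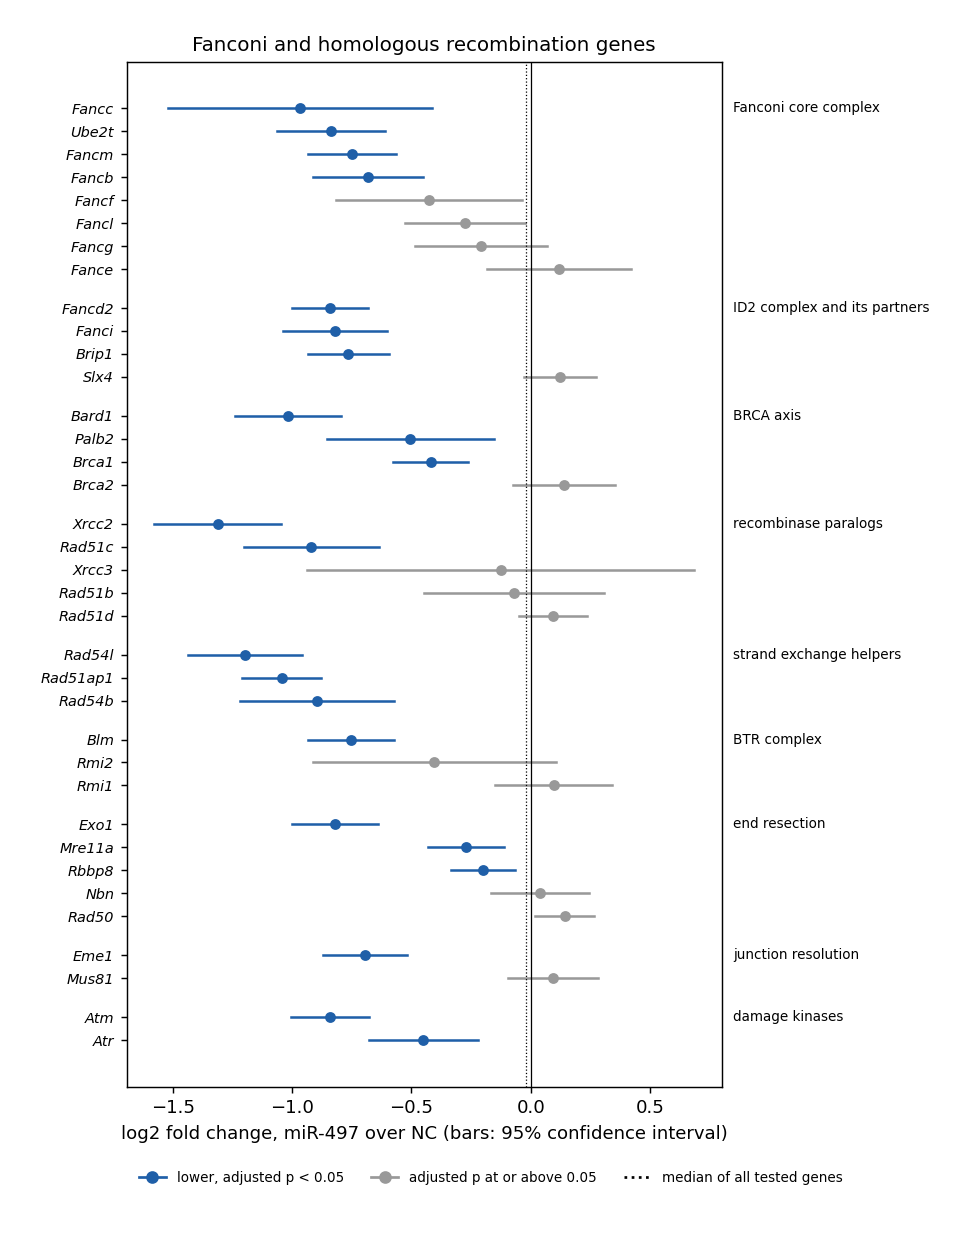
Log2 fold change (miR-497 over NC, x axis) of the 36 tested members, grouped by role, with 95% confidence intervals as bars. The 22 members in blue passed the edgeR threshold and all lie to the left of 0; the dotted line marks the median of all tested genes, -0.02.

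The core complex and its E2 enzyme were uneven. Of 8 tested genes, 4 fell and 4 did not pass. Ube2t, the E2 enzyme that carries the ubiquitin, fell to 56.0% of its NC level (log2 fold change -0.84, ± 0.106 SE; adjusted p = 5e-06 in edgeR). Fancm, the DNA translocase that anchors the complex at stalled forks, had 33.1 ± 0.705 CPM with NC and 19.7 ± 2.15 CPM with miR-497 (SD, n = 3), or 59.5% of the NC level. Fancb, an X-linked subunit, had a log2 fold change of -0.68. Fancc had the lowest level per kb of the tested core genes, 0.435 CPM per kb of exon with NC. Its CPM values were 4.68, 3.07 and 3.16 with NC and 2.03, 2.08 and 1.48 with miR-497. Its groups did not overlap, but its log2 fold change of -0.97 had an SE of 0.262 (adjusted p = 0.0054 in edgeR), and 18.6% of its exon bases lie under opposite-strand genes.

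The remaining core subunits gave no call. Fancl, the E3 ligase subunit, had a log2 fold change of -0.28 (95% confidence interval -0.53 to -0.03, edgeR adjusted p = 0.063), with all miR-497 values below the NC values. For Fancf, an adaptor subunit, it was -0.43 (interval -0.82 to -0.04), and for Fancg -0.21 (interval -0.48 to 0.07). Fance, which bridges the complex to FANCD2, was at 11.3, 11.6 and 12.3 CPM with NC and at 10.7, 11.1 and 16.3 CPM with miR-497, so the miR-497 library 3 alone stood above the others. Its log2 fold change was 0.12 (interval -0.18 to 0.42), and -0.10 without miR-497 library 3.

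Fanca (chr8:123268300-123318576), a scaffold of the core complex, was listed at 0 in all 6 libraries. It lies in an unbroken run of 72 protein-coding genes on chromosome 8, from Crispld2 to Galnt2 (chr8:119992438-124345724, 4.35 Mb, GRCm38), which were all listed at 0. The run includes Rpl13, a ribosomal protein gene that every cell uses, so no statement on Fanca expression is made. The annotated span of a predicted gene, Gm20388 (chr8:119910841-124345722), overlaps all 72 genes of the run, and Gm20388 itself had 9629 counts over the 6 libraries. Pgbd5, the first coding gene after the run, had 194 counts. Whether reads of the run were dropped because of that overlap was not tested. Fanca was the only member of the 37 that lay whole inside the span of another gene model in the table. No other member had more than 4 of its 10 nearest protein-coding neighbours at 0.

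The pair that receives the ubiquitin fell together. Fancd2 (ENSMUSG00000034023, chr6:113531682-113597017) was at 41.5, 39.4 and 41.3 CPM with NC and at 24.0, 23.4 and 20.9 CPM with miR-497. Fanci (ENSMUSG00000039187, chr7:79391929-79450264) was at 26.5, 27.5 and 31.5 CPM with NC and at 16.5, 18.01 and 13.9 CPM with miR-497. For both genes every miR-497 library lay below every NC library. Their log2 fold changes were -0.84 (± 0.0750 SE; adjusted p = 8.8e-08 in edgeR) and -0.82 (± 0.103 SE; adjusted p = 4.6e-06 in edgeR); Polg covers 16.0% of the exon bases of Fanci on the opposite strand. Brip1, the helicase that binds BRCA1 and is also known as FANCJ, fell by 0.76 on the log2 scale. Slx4, the scaffold that docks structure-specific nucleases, did not pass. Its values were 33.1, 31.3 and 30.8 CPM with NC and 32.9, 35.6 and 35.1 CPM with miR-497, with overlap in 1 library of each group, and its log2 fold change was 0.12 (interval -0.03 to 0.27).

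In the BRCA axis 3 of 4 genes fell. Bard1 (ENSMUSG00000026196, chr1:71027498-71103146), the obligate partner of BRCA1 in its ubiquitin ligase, was at 20.3, 21.8 and 18.7 CPM with NC and at 10.3, 10.7 and 9.02 CPM with miR-497, or 49.4% of the NC level (log2 fold change -1.02, ± 0.105 SE; adjusted p = 5.3e-07 in edgeR). Brca1 (ENSMUSG00000017146, chr11:101488764-101551955) was at 64.6, 60.4 and 65.3 CPM with NC and at 43.3, 52.2 and 46.7 CPM with miR-497, a smaller fall to 74.8% of the NC level (log2 fold change -0.42, ± 0.0743 SE; adjusted p = 0.00016 in edgeR). Neither gene overlapped between groups. Palb2, which links BRCA1 to BRCA2, was at 10.3, 7.97 and 8.31 CPM with NC and at 6.17, 5.04 and 7.51 CPM with miR-497. Its log2 fold change of -0.50 (± 0.165 SE; adjusted p = 0.018 in edgeR) lost its call without NC library 1 (adjusted p = 0.0946) and without miR-497 library 2 (adjusted p = 0.0933), among adjusted p-values from 0.0040 to 0.0946 over its alternatives. Brca2 (ENSMUSG00000041147, chr5:150522630-150570329), which loads the recombinase onto single-stranded DNA, was at 18.3, 16.9 and 17.6 CPM with NC and at 18.9, 22.0 and 17.2 CPM with miR-497. The groups overlapped, and its log2 fold change was 0.14 (interval -0.07 to 0.35, edgeR adjusted p = 0.27).

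The recombinase paralogs, which stabilise the recombinase filament, split into genes that fell and genes that gave no call. Xrcc2 (ENSMUSG00000028933, chr5:25689812-25705825) had the most negative fold change of all members. It was at 15.7, 19.4 and 18.5 CPM with NC and at 8.04, 6.17 and 7.45 CPM with miR-497, or 40.3% of the NC level (log2 fold change -1.31, ± 0.126 SE; adjusted p = 2.2e-07 in edgeR). Rad51c (ENSMUSG00000007646, chr11:87376645-87404954), a subunit of both paralog complexes, was at 12.1, 12.7 and 13.2 CPM with NC and at 6.09, 7.90 and 6.04 CPM with miR-497. The groups were well apart, with a log2 fold change of -0.92 (± 0.134 SE; adjusted p = 2.2e-05 in edgeR). Rad51d, Rad51b and Xrcc3 did not pass, with log2 fold changes of 0.09 (interval -0.05 to 0.24), -0.07 (interval -0.45 to 0.31) and -0.13 (interval -0.94 to 0.69). Xrcc3 had only 22 to 37 counts per library, which leaves its change undetermined at this depth.

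All 3 genes that assist strand exchange fell. Rad54l (ENSMUSG00000028702, chr4:116094264-116123690), a motor protein that drives strand exchange on chromatin, was at 16.2, 17.4 and 16.7 CPM with NC and at 7.12, 8.06 and 6.76 CPM with miR-497. Its log2 fold change was -1.20 (± 0.113 SE; adjusted p = 1.7e-07 in edgeR), and Lrrc41 covers 15.4% of its exon bases on the opposite strand. Rad51ap1 (ENSMUSG00000030346, chr6:126923050-126939587), which stimulates strand pairing, was at 44.2, 43.5 and 45.0 CPM with NC and at 22.9, 22.3 and 19.1 CPM with miR-497. Its log2 fold change was -1.04 (± 0.0788 SE; adjusted p = 1.2e-08 in edgeR). Rad54b, a relative of Rad54l, was at 12.4, 10.1 and 11.1 CPM with NC and at 4.74, 6.93 and 6.33 CPM with miR-497, with a log2 fold change of -0.89. In each of the 3 genes every miR-497 library lay below every NC library.

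**Figure D2:**
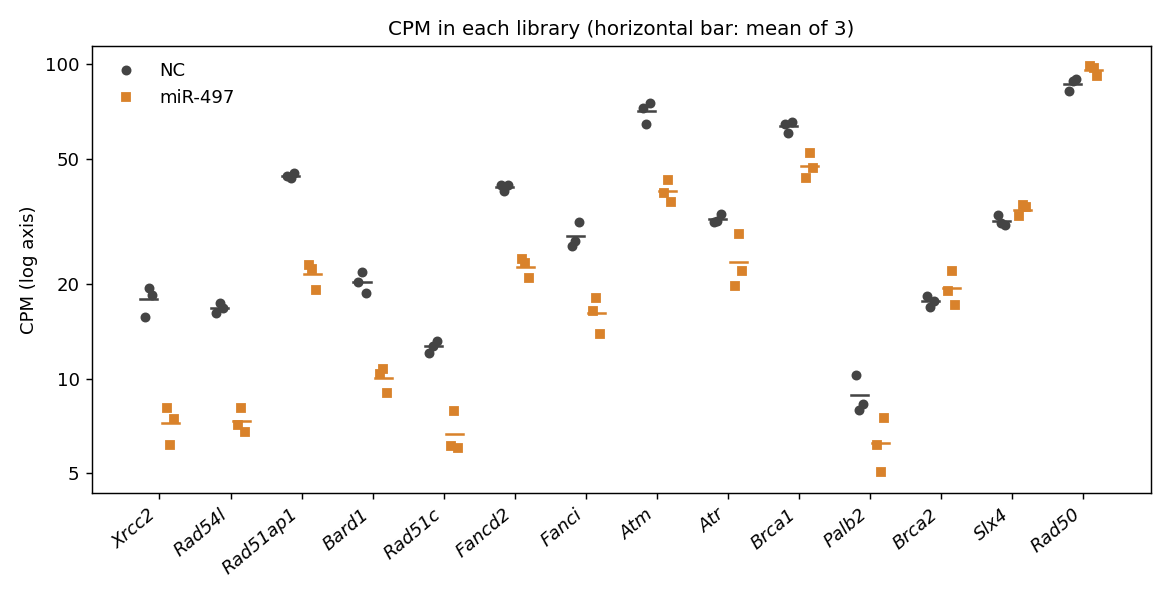
CPM (y axis, log scale) of 14 members in each NC library (circles) and miR-497 library (squares), with a bar at the mean of 3 libraries. The groups are separate for the genes from Xrcc2 to Palb2 and for Rad50, and overlap for Brca2 and Slx4.

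End resection exposes the single strand that recombination needs. Exo1, the long-range exonuclease, fell to 56.7% of its NC level (log2 fold change -0.82, ± 0.0851 SE; adjusted p = 5.4e-07 in edgeR). Mre11a, the nuclease of the MRE11-RAD50-NBN complex and the holder of 3 seed words, fell less, by 0.27 on the log2 scale (± 0.0754 SE; adjusted p = 0.0065 in edgeR). Rbbp8, which encodes CtIP and starts resection together with that complex, fell by 0.20 (adjusted p = 0.016 in edgeR), a call lost with upper-quartile scaling (adjusted p = 0.0517) and without NC library 3 (adjusted p = 0.0687). Rad50 (chr11:53649519-53707319), the structural ATPase, was at 82.3, 88.2 and 89.7 CPM with NC and at 98.6, 97.1 and 91.5 CPM with miR-497. All its miR-497 values were above its NC values, and its log2 fold change of 0.14 (interval 0.02 to 0.27) fell just short of a call in edgeR (adjusted p = 0.052). It was called higher under 6 of the 13 alternatives, with adjusted p-values from 0.0074 to 0.26 over all of them. Nbn, the signalling subunit, had a log2 fold change of 0.04 (interval -0.17 to 0.24).

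Of the genes that take joint molecules apart, Blm, the helicase that dissolves double Holliday junctions, fell from 28.9 ± 2.24 CPM to 17.2 ± 0.233 CPM (SD, n = 3), to 59.4% of the NC level (-0.75 on the log2 scale, ± 0.0849 SE; adjusted p = 1.4e-06 in edgeR). Its cofactors Rmi1 and Rmi2 did not pass, at 0.096 (interval -0.15 to 0.34) and -0.40 (interval -0.91 to 0.10). Eme1, the partner of the nuclease MUS81, fell to 61.7% of its NC level (log2 fold change -0.70, edgeR adjusted p = 2.6e-06). Lrrc59 and Mrpl27 cover 10.7% of the exon bases of Eme1 on the opposite strand. Mus81 had a log2 fold change of 0.09 (interval -0.09 to 0.28) and no call.

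Both damage kinases fell. Atm (ENSMUSG00000034218, chr9:53439149-53536740), the kinase that answers double-strand breaks, was at 72.7, 64.5 and 75.2 CPM with NC and at 39.0, 43.0 and 36.6 CPM with miR-497. That is 55.8% of the NC level (log2 fold change -0.84, ± 0.0781 SE; adjusted p = 1.5e-07 in edgeR). Atr (ENSMUSG00000032409, chr9:95857597-95951781), which answers stalled forks, was at 31.6, 31.8 and 33.4 CPM with NC and at 19.8, 28.8 and 22.0 CPM with miR-497. No value overlapped, but miR-497 library 2 stood nearer to NC than the others, and the log2 fold change was -0.45 (± 0.108 SE; adjusted p = 0.0022 in edgeR).

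The levels of partner transcripts were also set against each other within each library, as the log2 ratio of their CPM. The 10 pairs were chosen with the fold changes above in view, so the ratios describe those same values and were not tested. Relative to Rad51d, its direct partner, Xrcc2 went from -0.85 ± 0.150 to -2.25 ± 0.172 in log2 ratio (SD, n = 3), a difference of -1.41. Blm against Rmi1 differed by -0.85, Eme1 against Mus81 by -0.79, Palb2 against Brca2 by -0.65, Bard1 against Brca1 by -0.59 and Mre11a against Rad50 by -0.42. Rad51c against Xrcc3 differed by -0.79, and that ratio spread most among the miR-497 libraries (SD 0.538, n = 3). With only 22 to 37 counts of Xrcc3 per library, the Rad51c to Xrcc3 ratio is poorly determined. The ratio of Atr to Atm was higher with miR-497, by 0.37. The ratio of Fancd2 to Fanci was 0.52 ± 0.126 with NC and 0.50 ± 0.110 with miR-497 (SD, n = 3), and that of Nbn to Rad50 differed by -0.11; the values of the groups overlapped in both pairs.

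**Figure D3:**
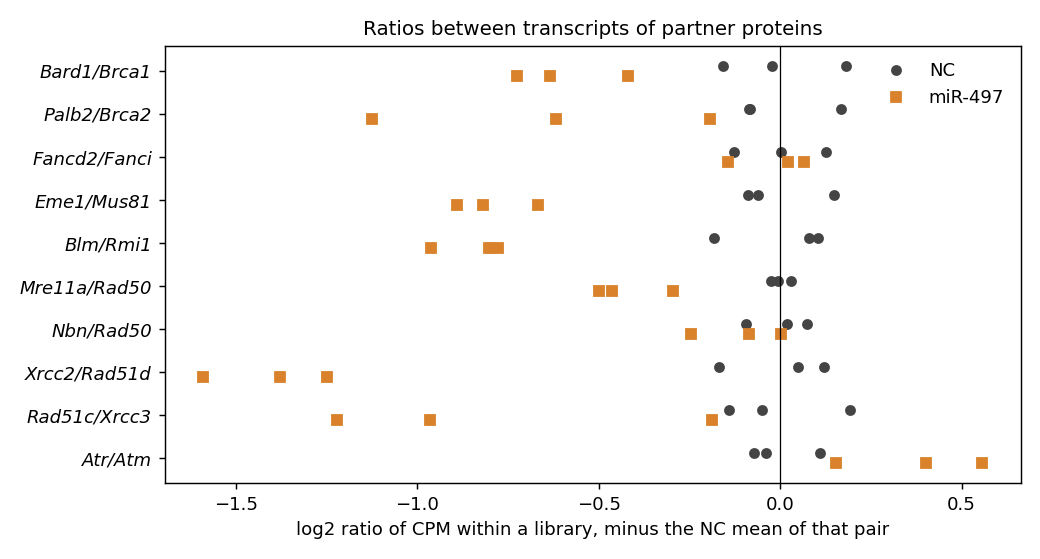
Log2 ratio of CPM between 2 partner transcripts within a library, minus the NC mean of that pair (x axis), for 3 NC libraries (circles) and 3 miR-497 libraries (squares). The pairs were chosen with the fold changes known; Xrcc2/Rad51d lies farthest to the left, at a mean difference of -1.41, and the points of Fancd2/Fanci lie among each other.

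On a scale per kilobase of annotated exon, levels in NC libraries ranged widely. Rad50 was highest at 16.1 CPM per kb, followed by Eme1 at 10.2 and Mre11a at 9.81, with Nbn and Rad51ap1 both at 9.19. Among tested members the lowest levels per kb were those of Xrcc3 at 0.355, Fancc at 0.435 and Rmi2 at 0.853 CPM per kb. Exon lengths join all annotated exons of a gene and so understate the level of genes with long rare exons.

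Across libraries, the median of the tested members on the log2(CPM + 1) scale, relative to each gene's NC mean, was 0.01, -0.03 and 0.02 for the NC replicates 1 to 3, while it stood at -0.57, -0.38 and -0.59 for the miR-497 replicates. The miR-497 library 3 was the lowest of its group for 19 of 36 members and library 2 the highest for 20.

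Most lower members held no seed word, and the same was true of lowered genes in general. Of the 22, 8 had a 7mer or 8mer and 14 had none. Across the whole data set 3654 genes fell, counting only those whose 3' UTR is annotated. Such a site was present in 1480 and absent in 2174, so the split among the members does not set them apart. Members with a site had a median log2 fold change of -0.79 (8 of 10 lower, no call for Rmi1 and Rmi2), and members without had -0.42 (14 of 26 lower). Over all tested genes with a 3' UTR, 41.0% were lower with a site and 23.5% without, with medians of -0.17 and 0.02. Members with a site had a median 3' UTR of 2882 bases, against 540 bases for those without, so site and length cannot be told apart in so few genes. Among the 21 members without even the 6-base core GCTGCT, 13 were lower.

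Promoters, from 250 bases before to 50 bases after the start site, were in the RefSeq table for 27 of the tested members. None was listed for Xrcc2, Rad54b, Fancd2, Exo1, Rbbp8, Rmi2, Rad51d, Nbn and Rad50. The counts and medians by word therefore leave out these members, among them Xrcc2, which had the largest fall. They were searched on both strands for the E2F words TTTGGCGC, TTTCCCGC, TTTGCCGC and TTTCGCGC, the cell cycle homology (CHR) word TTTGAA and the CCAAT word, over every listed start of a gene. An E2F word was found for 5 of the 27 members, or 18.5%, against 4.38% of 10816 tested genes and 2.26% of all promoters in the table. CCAAT was found for 18 of 27, or 66.7%, against 43.1% of tested genes and 37.4% of all promoters, and the CHR word for 3 of 27, or 11.1%, against 14.9% and 17.9%. Members with an E2F word had a median log2 fold change of -0.21, with 2 of 5 lower. The 22 without had a median of -0.59, with 15 lower. Only exact words were searched, so a near match counts as without, and the part of E2F was not tested. For CCAAT the medians were -0.59 with the word (12 of 18 lower) and -0.45 without (5 of 9 lower). The promoters below show a member that fell with an E2F and a CHR word (Bard1), a member that fell with CCAAT words alone (Rad51ap1) and a member with an E2F word and no call (Brca2); capitals mark the words, and ATTGG is CCAAT on the other strand.
Bard1, GRCm38.p6 chr1:71102923-71103222, minus strand: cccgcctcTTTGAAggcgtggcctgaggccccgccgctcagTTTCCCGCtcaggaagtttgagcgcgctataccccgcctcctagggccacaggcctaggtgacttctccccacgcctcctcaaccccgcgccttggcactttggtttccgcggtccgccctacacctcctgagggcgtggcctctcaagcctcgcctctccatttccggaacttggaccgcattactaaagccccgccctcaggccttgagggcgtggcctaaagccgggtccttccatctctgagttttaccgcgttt
Rad51ap1, GRCm38.p6 chr6:126939538-126939837, minus strand: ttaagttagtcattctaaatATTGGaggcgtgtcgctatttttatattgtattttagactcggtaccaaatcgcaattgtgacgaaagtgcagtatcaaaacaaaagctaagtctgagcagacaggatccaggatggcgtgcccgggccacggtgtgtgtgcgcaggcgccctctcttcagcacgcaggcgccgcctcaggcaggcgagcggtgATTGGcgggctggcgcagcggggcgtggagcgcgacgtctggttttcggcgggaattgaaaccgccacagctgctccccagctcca
Brca2, GRCm38.p6 chr5:150522371-150522670, plus strand: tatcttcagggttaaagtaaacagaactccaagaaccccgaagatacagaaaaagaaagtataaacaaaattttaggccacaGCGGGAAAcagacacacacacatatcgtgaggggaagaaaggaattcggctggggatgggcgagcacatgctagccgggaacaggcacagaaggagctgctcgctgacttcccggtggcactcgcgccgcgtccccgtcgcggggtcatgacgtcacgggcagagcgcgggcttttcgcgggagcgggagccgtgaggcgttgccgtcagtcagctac

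Most other genes of the same pathways were lower as well. Of 44 further Fanconi and recombination genes, 42 were matched and tested. Of these 23 fell, 5 rose and 14 did not pass, with a median log2 fold change of -0.36. The shares were 54.8% lower and 11.9% higher, against 26.0% and 23.8% of all tested genes. Mms22l and Tonsl, which form a complex that protects replication forks, fell from 26.8 ± 2.44 to 12.4 ± 0.811 CPM and from 22.3 ± 1.23 to 10.8 ± 1.73 CPM (SD, n = 3). Polq, the polymerase of microhomology-mediated joining, fell by 1.05 on the log2 scale. The 5 that rose, Faap20, Ercc4, Recql5, Zswim7 and Rpa1, had log2 fold changes from 0.15 (Rpa1) to 0.40 (Zswim7); they are named after their values were seen. Among 18 tested genes of damage signalling and the 53BP1 branch, which limits resection, 8 fell, or 44.4%, and 6 did not pass. The other 4 (Rad17, Rad1, H2afx and Trp53bp1) rose, or 22.2%, which is near the 23.8% of all tested genes. The median of that list was -0.12. Hus1, part of the 9-1-1 clamp, fell by 1.25 and Clspn, an adaptor that passes the ATR signal to its effector kinase, fell by 1.09 on the log2 scale.

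Most replication fork genes and all mitosis genes fell. Of 34 tested replication fork genes 23 fell, 1 (Mcm6, named after its value was seen) rose and 10 did not pass, with a median of -0.43. The shares were 67.6% lower and 2.94% higher, against 26.0% and 23.8% of all tested genes. Mcm6 had a log2 fold change of 0.16 and lost its call with the replicate block and without NC library 1, NC library 2, miR-497 library 1 or miR-497 library 2. Pold3, a polymerase delta subunit, fell by 1.10. Cdt1 and Gins2 of that list lie in the same run as Fanca and were listed at 0. All 26 mitosis genes fell, with a median of -0.76, and none was higher, also without adjustment, in DESeq2 or in limma voom. Their summed level was 2557 to 2701 CPM with NC and 1350 to 1688 CPM with miR-497. Whether the share of cycling cells differed between the groups was not measured, and its part in the members' falls was not tested.

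End joining and nucleotide excision repair are set beside all tested genes, of which 26.0% were lower and 23.8% higher. Of 11 end joining genes, 2 (Poll and Xrcc4) fell, or 18.2%. Another 4 (Xrcc5, Xrcc6, Prkdc and Aplf) rose, or 36.4%, and the median was 0.05. Prkdc, the DNA-dependent protein kinase, rose from 22.0 ± 1.76 to 31.2 ± 2.89 CPM (SD, n = 3). Nucleotide excision repair had 6 genes lower and 6 higher of 17, or 35.3% each, with a median of 0.02. Genes of these lists named beyond the 3 largest changes were picked after their values were seen. Polq, of microhomology-mediated joining, was counted with the further recombination genes and not with end joining. All lists were chosen with earlier results of these data known. These lists are described by their counts, and the difference between lists was not tested.

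**Figure D4:**
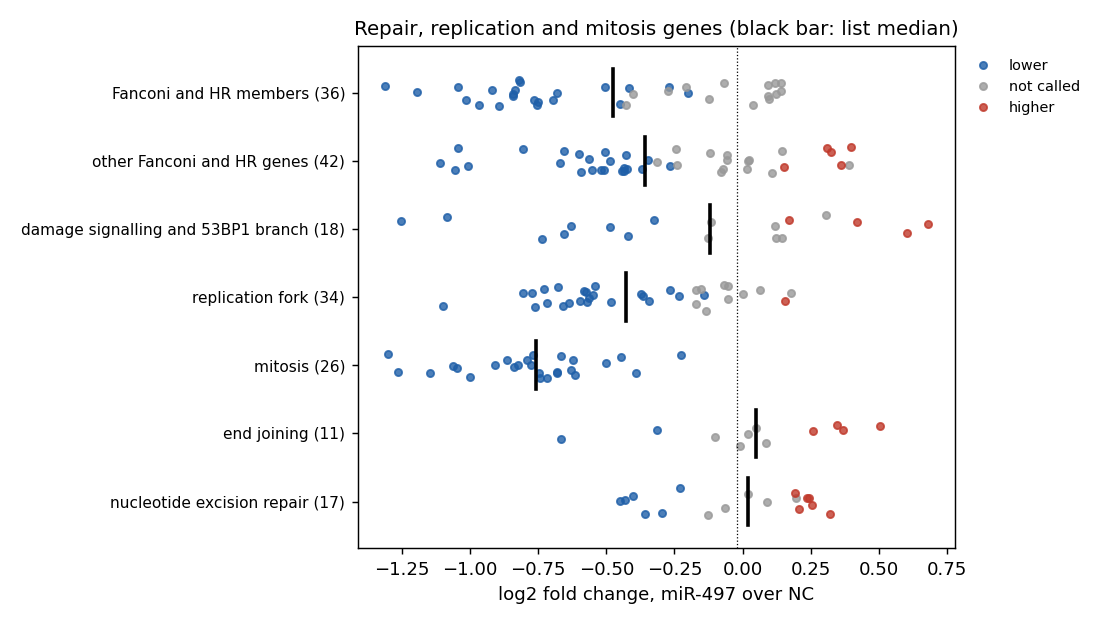
Log2 fold change (miR-497 over NC, x axis) of each tested gene in 7 lists, with the number tested in brackets, the list median as a black bar and the median of all tested genes as a dotted line. The medians are -0.48 for the members, -0.43 for replication fork genes and -0.76 for mitosis genes, and lie at or above 0.02 for end joining and nucleotide excision repair.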

How the data were processed

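The authors deposited a single table of unnormalized read counts, in whole numbers, for mouse Ensembl genes. Per the submitters' processing notes, STAR 2.5.4b, featureCounts, Subread 1.6.1, edgeR 3.32.1 and GRCm38 were used, with no roles stated; the annotation release, strand setting and handling of multiply aligned reads are not given in the sources used here. Without a known strand setting, reads of overlapping opposite-strand genes cannot be told apart. That touches 6 tested members with over 10% of their exon bases so covered: Fancc, Fancf, Fancl, Fanci, Rad54l and Eme1. Groups and replicate numbers came from the sample titles. Depth per library is given with the results; intervals come from the fitted model.

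Symbols were attached for 55141 of 55401 genes. Genes were filtered with filterByExpr (minimum count 10, minimum total 15), scaled by TMM and tested with edgeR 4.0.16 in R 4.3.3 (quasi-likelihood F-test, group as the only term, 2-sided, Benjamini-Hochberg). CPM refers to TMM-scaled library sizes. The standard error is the log2 fold change divided by the square root of F. The fit was tested on simulated data, with 50 genes changed at each fold. It called 38% of the 1.3-fold changes, 84% of the 1.5-fold and of the 2-fold changes and 100% of the 4-fold changes. There were 6 false calls. The simulated counts had the same dispersion for every gene and far fewer changed genes than the data, where 3490 were called higher and 3817 lower. These rates are therefore not those of the real fit. Small changes were missed most often in the simulation and may be missed in the real fit as well. Seed sites use the longest 3' UTR of protein-coding transcripts in GENCODE M21.

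The members and all lists were chosen with earlier results of these data known. Every member is named. Library values are given for Brca1, Brca2, Palb2, Fancd2, Fanci, Fanca, Atm, Atr, the 8 members with the most negative and the 4 with the most positive fold change. From other lists, at most 3 called genes with the largest change at a mean log2 CPM of at least 2 are named unless stated. Alternatives were DESeq2 size factors, upper-quartile scaling, no filter, a mean count of at least 50, the DESeq2 1.42.0 Wald test, limma 3.58.1 voom, the replicate number as a block, and leaving out each library. Results of the mismatch and base excision repair lists are not reported here.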

Additional observations from a re-analysis of the deposited data

How the results depend on the processing

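The count of lower members was 21 to 23 under the 13 alternatives, and 20 of the 22 lower members were called in every fit. The replicate block gave 22 lower and 0 higher members. It was no sign of a true pairing: deviations of same-numbered libraries correlated at -0.12, -0.04 and -0.13, and 0 of 6 libraries correlated best with their own number. With the block 3177 genes were higher and 3563 lower, against 3490 and 3817. The count of higher members, 0, became 1 with DESeq2 size factors, with upper-quartile scaling, with a mean count of at least 50 and with the DESeq2 Wald test, and was 0 to 1 in fits that left out a library; the gene was Rad50 each time, and the cause was not tested. The median of the members ran from -0.56 to -0.43. Fancf was called lower with no filter (adjusted p = 0.0444) and without NC library 3 (adjusted p = 0.0247) and stood at -0.25 without NC library 1 (adjusted p = 0.31). Leaving out a library moved the fold change by over 1.5 times in 10 of the 14 members with no call, among them Brca2 (0.037 to 0.22) and Rmi2 (-0.60 to -0.21), and in 0 of the 22 lower members. That measure is a ratio to the main fold change, so it marks small fold changes easily and large ones rarely. It therefore does not compare the stability of called and uncalled members. The lower members Fancc (-1.07 to -0.75) and Atr (-0.62 to -0.34) moved too. Of 467 pairs of member and alternative, 449 kept direction and side of the threshold, 4 lost a call, 8 gained it and 6 changed sign, all of the last in genes with no call: leaving out libraries took Fance from -0.10 to 0.22, Rad51b from -0.31 to 0.0860, Xrcc3 from -0.29 to 0.0358 and Nbn from -0.0299 to 0.13. Of the other lists, end joining had 1 lower gene in place of 2 in 7 alternatives. Replication fork genes had 0 higher in place of 1 with the block and without NC library 1, NC library 2, miR-497 library 1 or miR-497 library 2. The further recombination genes had 3 higher in place of 5 without NC library 3. Depth limits Xrcc3, Rmi2 and Fancc, which had the fewest counts.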
